A study of Homo sapiens with 6 samples.

Results

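The genes that encode the nuclear pore complex and the nuclear transport receptors were read from a table of 14959 genes measured in UM-SCC1 cells. The set was chosen by name alone and holds 55 genes: every gene called NUP, KPNA, KPNB, IPO, TNPO or XPO with a number (and XPOT), together with AAAS, NDC1, POM121, RAE1, TPR, SEH1L, RANBP2, RANGAP1, RAN and RCC1. XPO5 was left out of it. No measured value entered this choice, although earlier results of the same data were known when it was made.

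UM-SCC1 is an established cell line from a human head and neck squamous cell carcinoma (HNSCC). The cells were transfected for 48 h with miR-204-5p mimics (3 libraries) or with control mimics (3 libraries), and total RNA was sequenced, to learn which genes respond to the microRNA. A mimic is a synthetic RNA duplex that a cell loads into its silencing machinery like its own microRNA, and the control mimics carry an unrelated sequence. Each library stood for 1 of 3 independent experiments per group according to the design, both groups were transfected cells of 1 line, and untransfected cells were not analysed here.

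The nuclear pore complex is a ring of many protein copies set in the nuclear envelope. Y-shaped subcomplexes form its outer rings, the inner ring holds them to the membrane and to the channel, and proteins rich in phenylalanine and glycine fill the channel and bind transport receptors. Importin alpha recognises the classical nuclear localisation signal and binds importin beta, other members of the beta family bind cargo directly, and the small GTPase Ran, charged in the nucleus by RCC1 and discharged in the cytoplasm with RANGAP1, releases or loads that cargo. These genes are active in all nucleated cells, and a microRNA lowers an mRNA mainly through pairing of its seed, the bases close to its 5′ end, with the 3′UTR.

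The sequence of miR-204-5p and the matches to its seed in the genes that changed are shown first. Whether any of these matches was used in these cells was not tested. The mature sequence, from RefSeq, lies at chr9:70810031-70810052 on the minus strand of GRCh38.p14, and the capitals mark bases 2 to 8:
hsa-miR-204-5p: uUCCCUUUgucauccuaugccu

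A match counted as 8mer (AAAGGGAA), 7mer-m8 (AAAGGGA) or 7mer-A1 (AAGGGAA) on the transcript strand, each gene taking its best class in the longest 3′UTR of GENCODE 29 (GRCh38). Among the genes that were lower with miR-204-5p mimics, 5 had such a match, and these are the best ones, with the match in capitals:
IPO8: tctgcagtattAAAGGGAAagagatat
POM121: tgtctgtgtagAAAGGGAAgacataag
KPNA1: ttcagtgaagaAAAGGGAtccacttt
IPO7: ctaggttgcttAAAGGGAtttcacta
NUP210: gccactgccgcAAGGGAAgcctcagg
The 8mers of IPO8 and POM121 lie at chr12:30629147-30629154 (minus strand, exon 25) and chr7:72951260-72951267 (plus strand, exon 16). The 7mer-m8 of KPNA1 is at chr3:122423437-122423443 (minus strand, exon 14) and that of IPO7 at chr11:9446998-9447004 (plus strand, exon 25), and the 7mer-A1 of NUP210 is at chr3:13317128-13317134 (minus strand, exon 40). Of these genes, POM121 also held a 7mer-m8 and 3 further 7mer-A1 matches in the same 3′UTR. The lower calls of POM121 and NUP210 depended on single libraries, as given below. Another 4 genes had a match and were higher with the mimics, and they are shown beside the first for comparison:
IPO5: acctgaaggggAAAGGGAAatcaaatt
NUP93: tttaaaaagaaAAAGGGAcggggtgc
NDC1: tctggtctctcAAAGGGAgcagcctc
XPO4: ttatatatgtcAAAGGGAcactgtca
The 8mer of IPO5 lies at chr13:98022095-98022102 (plus strand, exon 29), and the 7mer-m8 matches lie at chr16:56849343-56849349 (plus strand, exon 20) in NUP93, at chr1:53767051-53767057 (minus strand, exon 18) in NDC1 and at chr13:20781094-20781100 (minus strand, exon 23) in XPO4, which also held a 7mer-A1 in the same 3′UTR. The matches of IPO5 and NUP93 are not part of the transcript that the deposited table lists for these genes.

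Levels were given as FPKM, the number of sequenced fragments scaled to transcript length and to the depth of the library. Differences were tested with limma on log2(FPKM + 1) over all 14959 genes, and a gene was called when its adjusted p-value (Benjamini-Hochberg, all genes) was under 0.05. A log2 fold change below is on that scale, miR-204-5p mimics over control mimics, and is understated for low genes. The p-values measure only the spread between these 3 and 3 libraries. The table holds no counts. Low values implied 13.1 to 16.4 M fragments per library, at which a single fragment of a 1 kb transcript equals 0.0610 to 0.0766 FPKM. Across genes, Spearman correlations were 0.9899 to 0.9908 within groups and 0.9733 to 0.9756 between them. Of the squamous epithelial markers, all 7 were in the table, with a summed level of 866 to 960.5 FPKM with miR-204-5p mimics and 986 to 1021 FPKM with control mimics. Of these, CDH1 and SFN were higher and TP63, KRT5, KRT14 and EPCAM lower, TP63 at 0.489 times its control level. The 11 markers of leukocytes, endothelium and fibroblasts summed to 23.9 to 24.7 and 25.7 to 27.3 FPKM, almost all of it CD14 and COL1A1, with the other 9 below 1 FPKM and none listed at 0 in all libraries. CD14 was lower (0.763 times the control level) and VWF, PDGFRB and COL1A2 were higher (1.53, 2.03 and 1.88 times). The part of these differences in the results below was not tested. Fewer cells of a kind and less RNA per cell cannot be told apart in bulk RNA.

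With miR-204-5p mimics, pore and transport genes changed in both directions by moderate amounts. In the scaffold, 8 of the 12 Y complex and inner ring genes of the set were higher and none was lower. Of the 55 genes, 28 were called (50.9%), against 40.8% of all genes. Of these, 21 were higher (38.2%, against 23.9% of all genes) and 7 were lower (12.7%, against 16.8%). Counts for single parts of the pore or single receptor families, given here and below, were not tested against such shares. The 3 values of one group lay wholly above those of the other for 33 of the 55 genes (60.0%, against 53.6% of all genes), in 24 with the mimics higher (30.9% of all genes) and in 9 with them lower (22.7%). The median log2 fold change of the set was 0.09, that of all genes 0.03, and with genes of a mean FPKM of at least 1 (53 of the 55 and 11504 of all) these were 0.10 and 0.04. Among such genes most shares lay closer together: 52.8% of the set and 47.8% of all were called, and 39.6% and 27.7% were higher. The groups did not overlap in 60.4% and 60.3%. The shares of lower genes lay further apart, at 13.2% and 20.1%. The excess of higher over lower calls in the whole table depended on scaling, with 3578 higher and 2520 lower as given, 3080 and 2885 at equal sums, 3106 and 2948 at equal medians and 3043 and 3026 after quantile normalization. In the set, 21 were higher under each of these, and 7, 9, 9 and 8 were lower. Single changes ran from −0.56 (TNPO3) to 0.67 (IPO4), and the median size of the called changes was 0.38 in the set and 0.37 among all called genes.

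**Figure D1:**
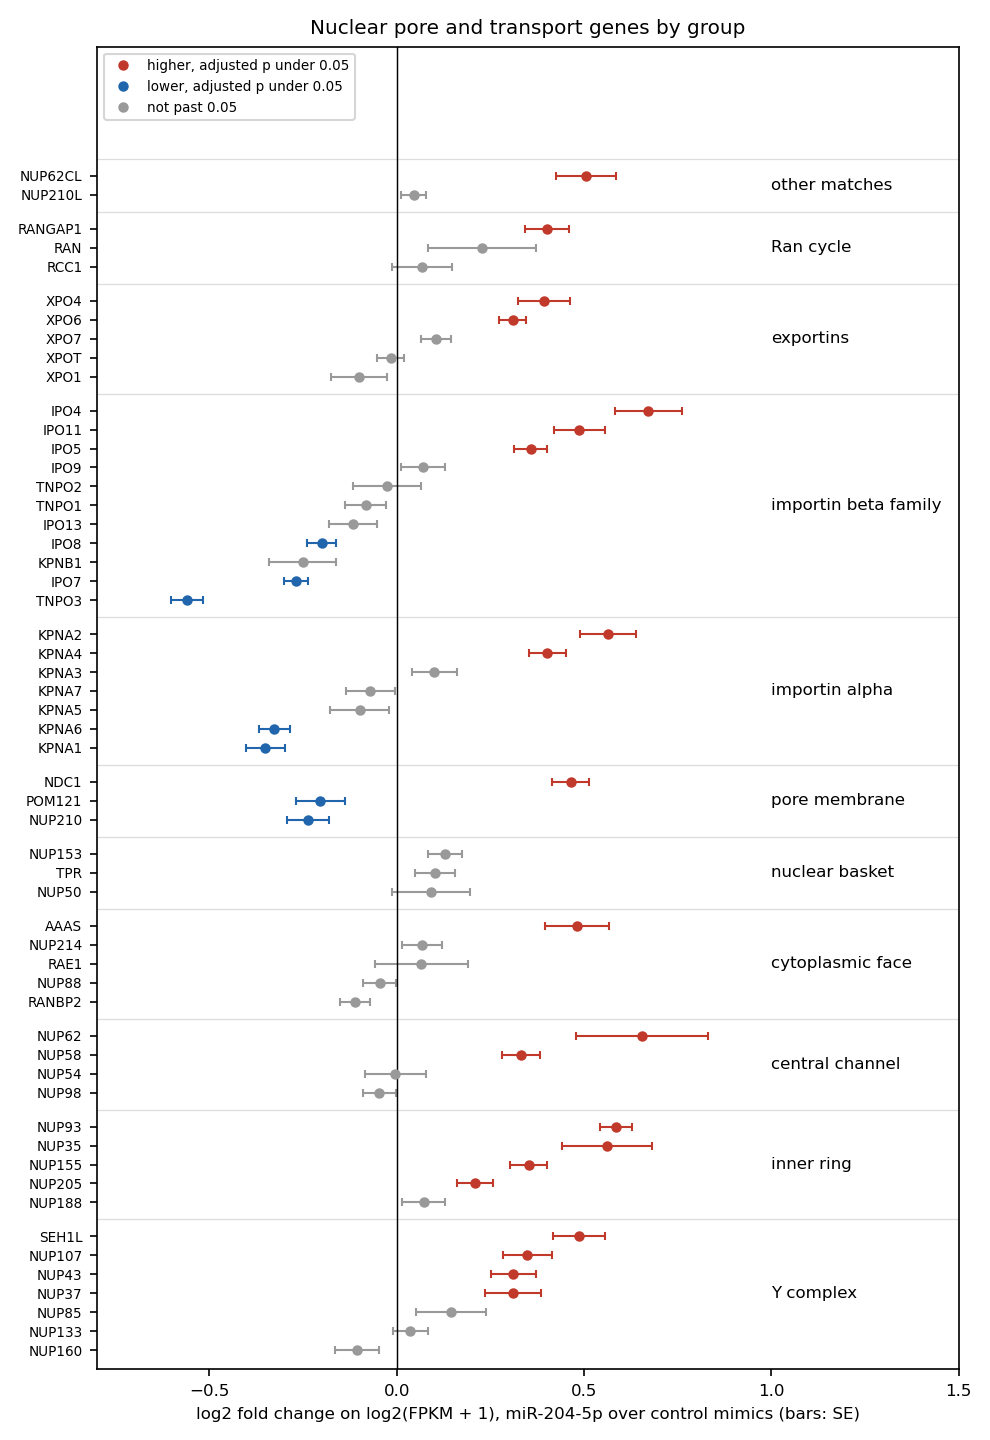
The horizontal axis is the log2 fold change on log2(FPKM + 1), miR-204-5p mimics over control mimics, for each of the 55 genes, with bars of 1 SE from limma, and genes are grouped by their place in the pore or their role in transport. Of the 12 Y complex and inner ring genes of the set, 8 are higher and none is lower. Of all genes, 23.9% were higher and 16.8% lower, and a difference from these shares was not tested. The Y complex genes SEC13 and AHCTF1 are outside the set and were not called. The importin alpha genes and the importin beta family hold called changes on both sides of 0.

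Of the Y complex, the building block of the outer rings, the set holds 7 genes. Of these, 4 were higher and none lower, with a median log2 fold change of 0.31. Among table genes averaging 1 FPKM or more, 27.7% were higher and 20.1% lower. Differences from these shares were not tested here, nor for the inner ring and the central channel below. The name rule leaves out SEC13 and AHCTF1, also genes of the complex, and neither was called. Their log2 fold changes were −0.09 (adjusted p = 0.297, limma) and 0.15 (adjusted p = 0.0904, limma), the groups of AHCTF1 not overlapping. NUP98, which also encodes a Y complex protein, is counted with the central channel and was not called. SEH1L, a propeller protein of the complex that also serves in the GATOR2 complex of amino acid sensing, had 19.5, 21.1 and 22.1 FPKM with miR-204-5p mimics and 14.5, 13.6 and 15.8 FPKM with control mimics. All 3 mimic libraries were above all 3 control libraries, with a log2 fold change of 0.49 ± 0.07 (SE, adjusted p = 0.00218, limma). NUP107, the gene of a core stem protein, had 9.08, 9.95 and 8.54 FPKM against 6.78, 6.99 and 7.21 FPKM (log2 fold change 0.35 ± 0.07, adjusted p = 0.00642). NUP43 had 15.7, 15.95 and 15.4 FPKM with miR-204-5p mimics, all above the 11.4, 12.7 and 13.2 FPKM of the controls (0.31 ± 0.06, adjusted p = 0.00718). NUP37, like NUP43 a peripheral propeller protein, had 13.1, 15.9 and 13.9 FPKM against 10.8, 11.5 and 11.7 FPKM (0.31 ± 0.08, adjusted p = 0.0173). The call of NUP37 was lost without control mimics replicate 1, where its log2 fold change was 0.28 and its adjusted p 0.0571.

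The other 3 Y complex genes of the set were not called, and their groups overlapped. NUP133, whose product tethers the stem to curved membrane, had 17.4 to 19.1 FPKM with miR-204-5p mimics and 17.3 to 17.9 FPKM with control mimics (log2 fold change 0.04, adjusted p = 0.585, limma). Its 3′UTR holds an 8mer. NUP160, a long arm of the Y, had 13.8 to 15.5 and 14.9 to 16.1 FPKM (−0.11, adjusted p = 0.191). NUP85 had 14.2 to 15.9 and 12.5 to 15.8 FPKM (0.15, adjusted p = 0.263), and without control mimics replicate 3 it passed the threshold (0.24, adjusted p = 0.0369). Summed over the 7 genes, the level was 107.8 ± 3.503 FPKM in the mimic libraries and 92.4 ± 4.60 FPKM in the control libraries (SD, n = 3 each, no test).

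The inner ring, which joins the outer rings to the membrane and the channel, had 4 of 5 genes higher, none lower and a median log2 fold change of 0.35. NUP93, the protein that holds the channel trimer in place, had 10.6, 10.6 and 10.7 FPKM with miR-204-5p mimics. Its control libraries had 6.71, 6.74 and 6.84 FPKM. The libraries of each group lay close together and the groups far apart, and the log2 fold change was 0.59 (95% confidence interval 0.48 to 0.69, adjusted p = 0.000195, limma). NUP35, which binds the membrane, had 7.35, 5.90 and 5.20 FPKM with miR-204-5p mimics and 3.88, 3.45 and 4.11 FPKM with control mimics, so that its mimic libraries were spread widely but did not overlap the controls (0.56 ± 0.12, adjusted p = 0.0106). NUP155, another membrane-contacting protein of the ring, had 14.3, 15.2 and 15.4 FPKM against 11.9, 11.1 and 11.6 FPKM (0.35 ± 0.05, adjusted p = 0.00196). NUP205, one of the large paired scaffold proteins, had 16.8, 17.95 and 17.0 FPKM against 14.5, 14.5 and 15.5 FPKM (0.21 ± 0.05, adjusted p = 0.0137). Its paralog NUP188 had 18.6 to 21.0 FPKM with miR-204-5p mimics and 18.3 to 19.65 FPKM with control mimics and was not called (0.07, adjusted p = 0.369). The summed level of the ring was 69.2 ± 1.34 FPKM in the mimic libraries and 56.0 ± 1.68 FPKM in the control libraries (SD, n = 3 each, no test).

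**Figure D2:**
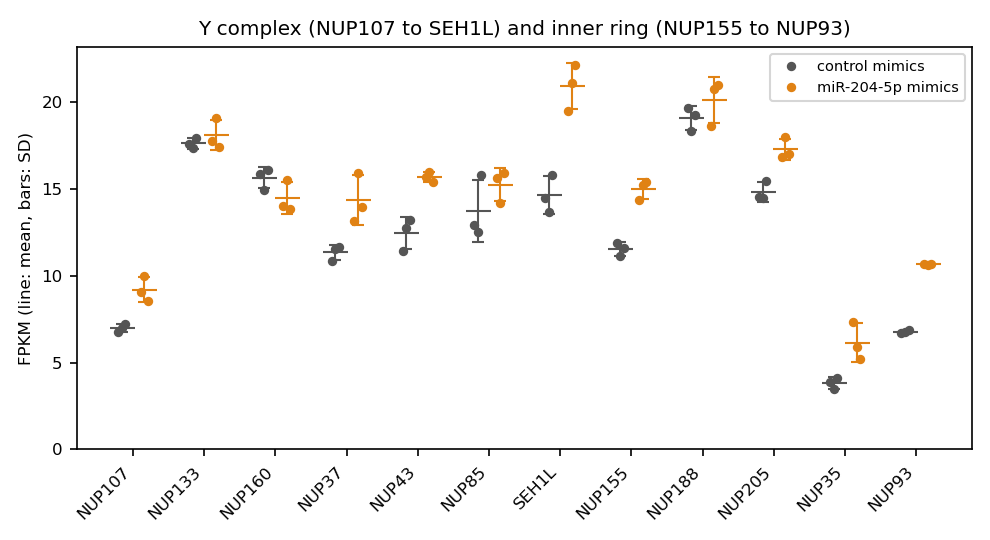
The vertical axis is FPKM, with 1 point per library, a line at the mean of 3 libraries and bars of 1 SD, for the 7 Y complex and 5 inner ring genes in control mimics (grey) and miR-204-5p mimics (orange). NUP93 at 10.6 to 10.7 against 6.71 to 6.84 FPKM and SEH1L at 19.5 to 22.1 against 13.6 to 15.8 FPKM show groups that do not overlap, and NUP133 and NUP160 show groups that do.

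In the central channel, 2 of 4 genes were higher and none was lower. NUP62, whose phenylalanine-glycine repeats bind transport receptors, had 5.20, 8.62 and 7.07 FPKM with miR-204-5p mimics and 3.68, 3.55 and 4.81 FPKM with control mimics (log2 fold change 0.65 ± 0.18, adjusted p = 0.0250, limma). The mimic libraries of NUP62 were the most scattered of the called genes, and the call did not hold without miR-204-5p mimics replicate 2 (0.51, adjusted p = 0.0652) or 3 (0.63, adjusted p = 0.0709) or without control mimics replicate 1 (0.61, adjusted p = 0.0755) or 2 (0.59, adjusted p = 0.0778). Exons of NUP62 share 336 bases with IL4I1 on the same strand and 626 bases with ATF5 on the other strand, and whether the libraries kept strand is not stated. NUP58, a partner of NUP62 in the channel trimer, had 10.2, 10.4 and 9.94 FPKM against 8.25, 7.58 and 7.83 FPKM, with no overlap (0.33 ± 0.05, adjusted p = 0.00291). NUP54, the remaining subunit of that trimer, had 12.6 to 15.9 and 13.7 to 14.6 FPKM (adjusted p = 0.977). NUP98, which encodes both a channel protein and a Y complex protein, had 17.1 to 17.8 and 17.4 to 18.7 FPKM (−0.05, adjusted p = 0.433). The 3 genes of the channel trimer therefore did not all pass the test, and NUP54 is listed with a transcript annotated for nonsense-mediated decay.

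On the cytoplasmic face, AAAS was the only gene of 5 that was called. AAAS encodes ALADIN, a protein bound to the pore through NDC1, and had 17.9, 14.8 and 18.5 FPKM with miR-204-5p mimics and 12.5, 11.65 and 11.6 FPKM with control mimics (log2 fold change 0.48 ± 0.09, adjusted p = 0.00540, limma). RANBP2, the main protein of the cytoplasmic filaments and a SUMO ligase, had 12.3, 12.4 and 12.15 FPKM against 13.1, 13.6 and 13.25 FPKM. All its mimic libraries were below all its control libraries, but the change was small and not called (−0.11, adjusted p = 0.0677), and it passed when libraries were scaled to equal sums (−0.15, adjusted p = 0.0304) or equal medians (−0.15, adjusted p = 0.0214). The mRNA export factors NUP214 (10.3 to 11.25 and 10.1 to 10.8 FPKM) and NUP88 (19.45 to 20.6 and 20.2 to 21.6 FPKM) overlapped between groups. RAE1, a partner of NUP98 in mRNA export, had 10.3 to 10.7 FPKM with miR-204-5p mimics and 7.93, 10.9 and 11.3 FPKM with control mimics, 1 control library standing below the rest.

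None of the 3 nuclear basket genes was called, and all 3 log2 fold changes lay between 0.09 and 0.13. TPR, the filament protein of the basket, had 24.9 to 27.1 FPKM with miR-204-5p mimics and 23.1 to 25.6 FPKM with control mimics (adjusted p = 0.183). NUP153, which anchors the basket, had 12.5, 12.9 and 12.4 FPKM against 11.2, 11.2 and 11.9 FPKM. These groups did not overlap, yet the difference was not past the threshold (0.13, adjusted p = 0.0655). NUP50, a basket protein that helps to release cargo from importin alpha, had 9.16 to 11.2 and 8.77 to 10.95 FPKM (adjusted p = 0.524).

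The 3 proteins that span the pore membrane were all called but not in one direction. NDC1, needed for insertion of the pore into the envelope, had 20.6, 20.9 and 19.1 FPKM with miR-204-5p mimics and 14.7, 13.95 and 14.4 FPKM with control mimics (log2 fold change 0.46 ± 0.05, adjusted p = 0.000679, limma). NUP210, a large glycoprotein of the membrane ring, had 19.3, 21.1 and 21.8 FPKM against 25.55, 24.6 and 23.6 FPKM, and POM121, which takes part in the assembly of pores in interphase, had 8.56, 8.96 and 9.36 FPKM against 10.99, 10.85 and 9.62 FPKM. In both, each mimic library was below each control library, by a small margin in POM121, with log2 fold changes of −0.24 ± 0.06 (adjusted p = 0.0169) and −0.20 ± 0.07 (adjusted p = 0.0464). Both calls depended on single libraries. That of NUP210 was lost without control mimics replicate 1 (−0.21, adjusted p = 0.0565) or 2 (−0.24, adjusted p = 0.0508). The call of POM121 held in 1 of the 6 fits with 1 library left out, the one without control mimics replicate 3. Its values were −0.18, −0.20 and −0.23 without miR-204-5p mimics replicates 1, 2 and 3 (adjusted p = 0.123, 0.106 and 0.0589) and −0.17 and −0.18 without control mimics replicates 1 and 2 (adjusted p = 0.131 and 0.130). POM121C, a near-identical copy of POM121 with which reads may be shared, moved in the same direction (10.2, 10.4 and 11.3 FPKM against 13.9, 13.4 and 13.1 FPKM, −0.32 ± 0.05, adjusted p = 0.00448).

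The importin alpha genes, the adaptors for classical localisation signals, split by member: KPNA2 and KPNA4 were higher, KPNA1 and KPNA6 were lower, and KPNA3, KPNA5 and KPNA7 were not called. KPNA2, the adaptor typical of proliferating cells and by far the most abundant of the 7 in FPKM, had 154, 142 and 132 FPKM with miR-204-5p mimics and 92.55, 91.4 and 104 FPKM with control mimics. That was a log2 fold change of 0.56 (95% confidence interval 0.38 to 0.74, adjusted p = 0.00161, limma) without overlap of the groups. KPNA4 had 10.9, 11.1 and 10.3 FPKM with miR-204-5p mimics, against 7.73, 7.88 and 8.05 FPKM (0.40 ± 0.05, adjusted p = 0.00116). In the other direction, KPNA6 had 24.4, 26.1 and 25.4 FPKM against 32.8, 31.55 and 31.6 FPKM (−0.33 ± 0.04, adjusted p = 0.00125). KPNA1, which belongs to the same subfamily as KPNA5 and KPNA6, had 11.2, 10.95 and 10.5 FPKM against 14.4, 13.4 and 14.7 FPKM (−0.35 ± 0.05, adjusted p = 0.00265). Their groups did not overlap either.

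The uncalled adaptors gave values of several kinds. KPNA3, the closest relative of KPNA4, had 13.5, 14.3 and 13.2 FPKM with miR-204-5p mimics and 12.6, 11.8 and 13.6 FPKM with control mimics, which overlapped (log2 fold change 0.10, adjusted p = 0.239, limma). KPNA5 was low, at 1.37, 1.205 and 1.34 FPKM against 1.73, 1.35 and 1.34 FPKM (−0.10, adjusted p = 0.362). KPNA7, an adaptor of oocytes and early embryos, had at most 0.198 FPKM, about 5 fragments in a library or fewer, and 1 mimic library listed it at 0. At this depth a difference in KPNA7 was not detectable.

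As KPNA2 rose while KPNA1 and KPNA6 fell, the make-up of the summed adaptor level differed between groups, which is given here as a description without a test. KPNA2 accounted for 71.5%, 69.0% and 68.4% of the summed importin alpha FPKM in the mimic libraries and for 57.2%, 58.0% and 60.0% in the control libraries. The share of KPNA6 was 12.4% ± 0.964 in the mimic libraries and 19.5% ± 1.13 in the control libraries (SD, n = 3 each). The whole sum was 204 ± 11.4 and 164 ± 8.23 FPKM (SD, n = 3 each), and without KPNA2 it was 61.9 ± 1.45 and 68.3 ± 1.81 FPKM (SD, n = 3 each). The total was thus higher with the mimics and the remainder was lower. FPKM is a level per length, and these shares hold as far as the transcript lengths used for it do.

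**Figure D3:**
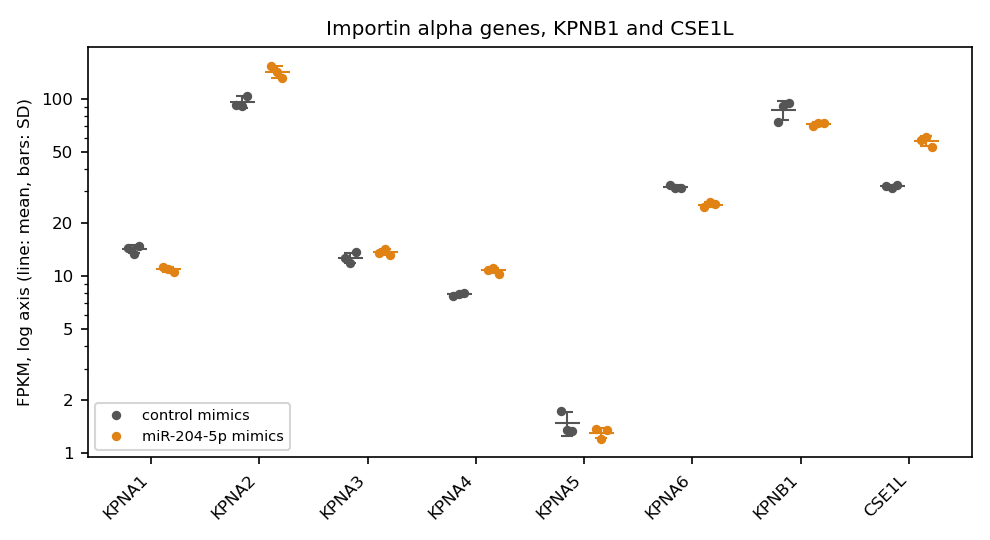
The vertical axis is FPKM on a log scale, with 1 point per library, a line at the mean of 3 libraries and bars of 1 SD, for 6 importin alpha genes, the importin beta gene KPNB1 and CSE1L, the export receptor of importin alpha, in control mimics (grey) and miR-204-5p mimics (orange). KPNA2 is at 132 to 154 against 91.4 to 104 FPKM and KPNA6 at 24.4 to 26.1 against 31.55 to 32.8 FPKM, and CSE1L has the widest gap between groups among these genes.

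The importin beta family had 3 of 11 genes higher, 3 lower and a median log2 fold change of −0.08. Of all table genes averaging 1 FPKM or more, 27.7% were higher and 20.1% lower. Whether the family differed from these shares was not tested. KPNB1, importin beta itself and the partner of importin alpha, had 70.3, 73.3 and 72.8 FPKM with miR-204-5p mimics and 74.15, 90.7 and 94.4 FPKM with control mimics. The groups did not overlap, but control mimics replicate 1 stood close to the mimic libraries, and the difference was not called (−0.25, 95% confidence interval −0.47 to −0.04, adjusted p = 0.0648, limma). Without that library the log2 fold change was −0.36 (adjusted p = 0.00343), and KPNB1 also passed with libraries scaled to equal sums (−0.29, adjusted p = 0.0375), to equal medians (−0.30, adjusted p = 0.0357) or by quantiles (−0.28, adjusted p = 0.0394). The ratio of KPNA2 to KPNB1 in FPKM was 1.98 ± 0.196 in the mimic libraries and 1.12 ± 0.121 in the control libraries (SD, n = 3 each, no test).

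TNPO3, the import receptor of serine- and arginine-rich splicing factors, had the largest decrease of the 55 genes. It had 11.3, 11.5 and 11.8 FPKM with miR-204-5p mimics and 17.7, 17.7 and 16.9 FPKM with control mimics. Both groups were tight and far apart, and the mean level was 0.660 times that of the controls (log2 fold change −0.56, 95% confidence interval −0.66 to −0.46, adjusted p = 0.000209, limma). The listed transcript of TNPO3 runs over chr7:128954180-129054914 on the minus strand, and its 3′UTR has no match to the seed. IPO7, a carrier of ribosomal proteins and, with KPNB1, of linker histone, had the highest level of the family in FPKM after KPNB1. It had 55.9, 57.5 and 55.5 FPKM against 68.3, 67.8 and 67.9 FPKM (−0.27 ± 0.03, adjusted p = 0.00103). Its paralog IPO8, a receptor known to bind Argonaute proteins, had 11.6, 11.5 and 11.5 FPKM against 13.3, 13.3 and 13.6 FPKM (−0.20 ± 0.04, adjusted p = 0.00737). Neither gene had overlapping groups.

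The 3 higher receptors of the family were IPO4, IPO11 and IPO5. IPO4, an importer of histones, had 12.1, 13.5 and 13.4 FPKM with miR-204-5p mimics and 7.32, 8.92 and 7.19 FPKM with control mimics (log2 fold change 0.67 ± 0.09, adjusted p = 0.00159, limma). This was the highest log2 fold change of the set with a pseudocount of 1, whereas with 0.1 that of NUP62 was higher (0.76, against 0.73 for IPO4). Of the 3646 bases of its listed transcript, 3470 are also annotated as exons of AL136295.4 on the same strand, a gene with 7.45 FPKM with miR-204-5p mimics and 5.71 FPKM with control mimics (0.34, adjusted p = 0.0448), so the assignment of reads to IPO4 is uncertain. IPO11, a receptor of ubiquitin-conjugating enzymes, had 5.62, 5.33 and 4.78 FPKM against 3.36, 3.51 and 3.465 FPKM (0.49 ± 0.07, adjusted p = 0.00212). IPO5, an importer of ribosomal proteins and histones, had 29.8, 30.5 and 28.5 FPKM against 23.5, 22.05 and 23.0 FPKM (0.36 ± 0.04, adjusted p = 0.00120). Mimic and control libraries did not overlap in any of these genes. IPO5 and IPO11 are listed with transcripts of 544 and 584 bases, where their longest ones have 6003 and 4356. Of the 55 genes, 8 are listed with a transcript under 1 kb, the others being SEH1L, NUP85, NUP35, NUP98, NUP88 and KPNA5. NUP88, like NUP54, is listed with a transcript annotated for nonsense-mediated decay. The length behind the FPKM of these genes is not stated.

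The remaining receptors of the family had overlapping groups. TNPO1, which imports proteins of RNA metabolism with a proline-tyrosine signal, had 16.2 to 17.9 FPKM with miR-204-5p mimics and 17.4 to 18.9 FPKM with control mimics (log2 fold change −0.08, adjusted p = 0.277, limma), and its paralog TNPO2 had 11.9 to 13.8 and 11.4 to 14.0 FPKM (−0.03, adjusted p = 0.850). IPO9, a histone carrier, had 10.3 to 11.1 and 9.51 to 10.55 FPKM (0.07, adjusted p = 0.384). IPO13, a receptor that works in both directions, had 13.1 to 15.0 and 14.6 to 16.0 FPKM (−0.12, adjusted p = 0.193). None of these differences was resolved with 3 libraries in each group. The family summed to 254 ± 5.32 FPKM in the mimic libraries and 276 ± 8.89 FPKM in the control libraries (SD, n = 3 each, no test).

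Of the 5 exportins, XPO4 and XPO6 were higher and none was lower. The shares among table genes averaging 1 FPKM or more were 27.7% higher and 20.1% lower, and a difference from them was not tested. XPO6, the exporter of actin and profilin, had 32.2, 32.0 and 33.0 FPKM with miR-204-5p mimics and 26.4, 25.3 and 26.15 FPKM with control mimics (log2 fold change 0.31 ± 0.04, adjusted p = 0.00103, limma). XPO4, an exporter of the translation factor eIF5A, had 5.73, 6.635 and 6.26 FPKM against 4.37, 4.37 and 4.72 FPKM (0.39 ± 0.07, adjusted p = 0.00494). XPO7, a receptor with a broad range of cargo, had 23.7, 24.9 and 25.1 FPKM against 23.3, 22.2 and 22.8 FPKM. It was higher in every mimic library than in any control library, though not past the threshold (0.10, adjusted p = 0.0824). XPO1 (CRM1), the receptor of leucine-rich export signals, had 27.7, 33.9 and 30.2 FPKM with miR-204-5p mimics and 32.0, 32.3 and 34.1 FPKM with control mimics, which overlapped. Its log2 fold change was −0.10 with a 95% confidence interval of −0.28 to 0.08 (adjusted p = 0.326). XPOT, the tRNA exporter, had 25.8 to 26.9 and 26.4 to 27.1 FPKM (−0.02, adjusted p = 0.758).

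**Figure D4:**
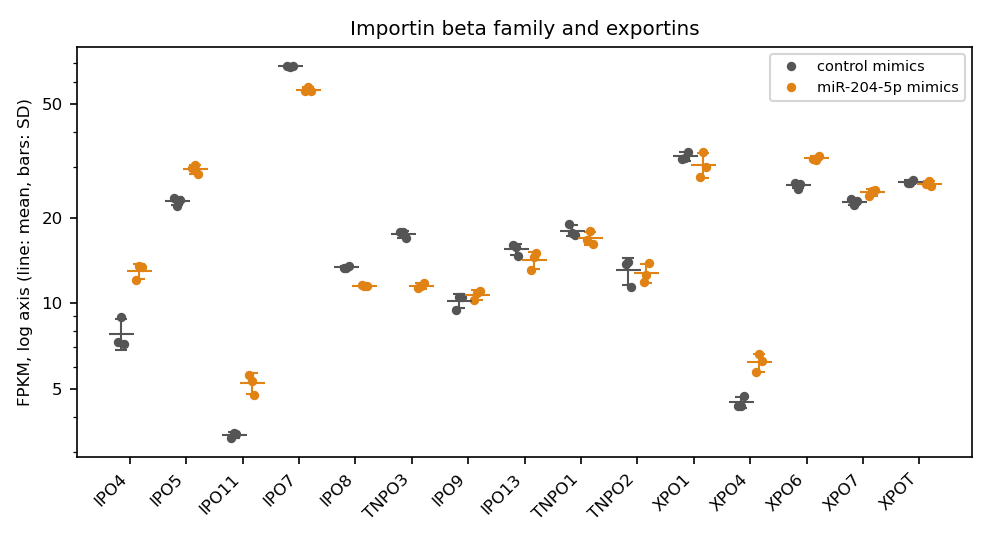
The vertical axis is FPKM on a log scale, with 1 point per library, a line at the mean of 3 libraries and bars of 1 SD, for 10 importin beta family genes and the 5 exportins in control mimics (grey) and miR-204-5p mimics (orange). IPO4, IPO5 and IPO11 lie higher with miR-204-5p mimics and IPO7, IPO8 and TNPO3 lie lower, with TNPO3 at 11.3 to 11.8 against 16.9 to 17.7 FPKM, while XPO1 and XPOT overlap.

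In the Ran cycle, RANGAP1 was higher, and RAN and RCC1 were not called. RANGAP1, the activator of GTP hydrolysis by Ran that sits on RANBP2, had 28.7, 32.3 and 29.5 FPKM with miR-204-5p mimics and 21.7, 23.75 and 22.4 FPKM with control mimics (log2 fold change 0.40 ± 0.06, adjusted p = 0.00236, limma). RAN had 133, 123 and 166 FPKM against 101, 137 and 122 FPKM. It was the most variable of the abundant genes of the set, and its 95% confidence interval of −0.12 to 0.57 around 0.23 leaves room for no change and for one as large as that of KPNA2 (adjusted p = 0.254). RCC1, the exchange factor that loads Ran with GTP on chromatin, had 40.85, 34.2 and 38.9 FPKM against 39.2, 35.3 and 34.1 FPKM (0.07, 95% confidence interval −0.13 to 0.26, adjusted p = 0.546).

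In mean level per length, the order at the top of the set with control mimics was RAN (119.8 FPKM), KPNA2 (96.0 FPKM), KPNB1 (86.4 FPKM) and IPO7 (68.0 FPKM). With miR-204-5p mimics it was KPNA2 (142.5 FPKM), RAN (140.5 FPKM), KPNB1 (72.1 FPKM) and IPO7 (56.3 FPKM). The libraries of RAN and KPNA2 overlapped in both groups, and those of KPNA2 and KPNB1 overlapped with control mimics and not with miR-204-5p mimics.

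The name rule also took in 2 relatives of pore genes. NUP62CL, a gene on chromosome X named for its likeness to the C-terminal part of NUP62, had 8.99, 7.24 and 7.82 FPKM with miR-204-5p mimics and 5.33, 5.16 and 5.51 FPKM with control mimics, without overlap (log2 fold change 0.50 ± 0.08, adjusted p = 0.00343, limma). NUP210L, a relative of NUP210 best known in testis, had at most 0.0770 FPKM, about 1 to 7 fragments per library, and was not called.

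A match to the seed was present in 16 of the 55 genes (29.1%), against 27.1% of the 14664 table genes with an annotated 3′UTR. The classes were 8mer in 4 genes (7.27%, against 8.60% of all), 7mer-m8 in 9 (16.4%, against 9.84%) and 7mer-A1 in 3 (5.45%, against 8.66%). Of the 7 genes that were lower, 5 had a match, the exceptions being KPNA6 and TNPO3. Among these 5, the calls of NUP210 and POM121 depended on single libraries. Neither was called with the replicate number as a block (adjusted p = 0.0582 and 0.111, limma). Of the 21 that were higher 4 had a match, and of the 27 that were not called 7 had one: NUP133, RAE1, RANBP2, KPNA5, IPO9, KPNB1 and TNPO2. Put the other way, 31.25% of the genes with a match were lower and 25.0% higher, and of those without one 5.13% were lower and 43.6% higher. Among all table genes these shares were 27.0% lower and 16.4% higher with a match and 13.4% lower and 27.2% higher without. The median log2 fold change was −0.06 with a match and 0.13 without one in the set, and −0.03 and 0.06 in the whole table. These are counts of letters in reference 3′UTRs, which do not show that a site was used, and 3′UTRs were longer in the set, with a median of 1497 bases against 1252.

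**Figure D5:**
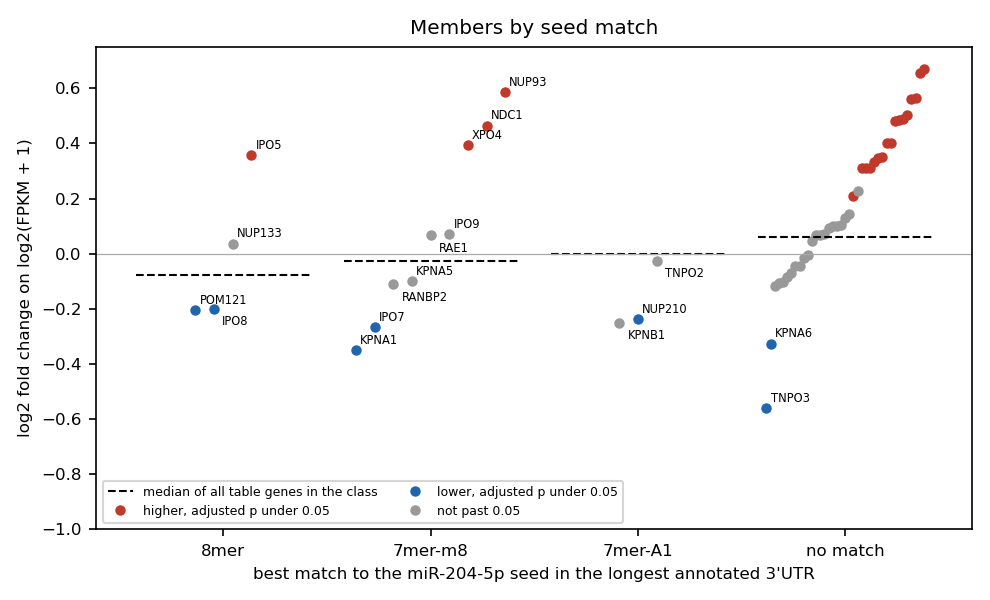
The vertical axis is the log2 fold change on log2(FPKM + 1), miR-204-5p mimics over control mimics, of each of the 55 genes (points, coloured by call), and the horizontal axis is the best match class to the seed, with a dashed line at the median of all table genes in that class. Of the 7 lower genes, 5 are in the 3 classes with a match, and the calls of NUP210 and POM121 among them depended on single libraries. IPO5 (8mer, 0.36) and NUP93 (7mer-m8, 0.59) are higher, and their matches are not part of their listed transcripts.

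Other genes of nuclear transport moved in both directions as well. Of 16 further pore proteins, receptors and Ran-binding proteins 15 were measured (RANBP17 was not in the table), and 4 were higher and 4 lower, or 53.3% called, against 40.8% of all genes and 47.8% of those with a mean FPKM of at least 1. Without miR-204-5p mimics replicate 1, 2 of the 15 were lower. CSE1L, which returns importin alpha to the cytoplasm, had 58.5, 61.1 and 53.8 FPKM with miR-204-5p mimics and 32.2, 31.2 and 32.7 FPKM with control mimics (log2 fold change 0.83 ± 0.05, adjusted p = 0.000127, limma), where the highest log2 fold change of the 55 genes was 0.67. NUTF2, the carrier of Ran into the nucleus, had 30.35, 49.2 and 47.6 FPKM against 17.8, 18.3 and 18.7 FPKM, 1 mimic library lying well below the other two (1.14 ± 0.18, adjusted p = 0.00296). NXF1, the main receptor of mRNA export, fell from 10.7, 10.7 and 10.3 FPKM with control mimics to 6.25, 5.999 and 6.71 FPKM (−0.66 ± 0.06, adjusted p = 0.000301), while its partner NXT1 was higher (0.22, adjusted p = 0.00634). RANGRF (0.38, adjusted p = 0.00185) was the remaining higher gene, and RANBP3 (−0.26, adjusted p = 0.0168), RANBP10 (−0.24, adjusted p = 0.0224) and POM121C were the other lower ones. RANBP3 was not called without miR-204-5p mimics replicate 1 (adjusted p = 0.0533), and RANBP10 was not called without miR-204-5p mimics replicate 1 or 3 or control mimics replicate 1 or 2 (adjusted p up to 0.0729). In RANGRF, 894 bases of the listed transcript lie opposite exons of SLC25A35, which was higher too (0.64, adjusted p = 0.00403).

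Genes of neighbouring pathways were counted beside the same shares. Of 22 measured mRNA export genes, which include NXF1, NXT1 and GLE1 from the list above, 6 were higher and 6 lower (54.5% called). THOC6 of the THO complex was highest (0.81, adjusted p = 0.000157, limma) and NXF1 lowest. The lower calls of THOC1 and THOC2 held in 2 and 4 of the 6 fits with 1 library left out. In THOC6, 256 bases of the listed transcript lie opposite exons of HCFC1R1, which was higher too (0.65, adjusted p = 0.00632, limma). Of 19 genes of the nuclear lamina and envelope 4 were higher and 6 lower (52.6% called), the lower ones including SUN1 and SUN2, which link the lamina to the cytoskeleton (−0.22 and −0.30). With 1 library left out, 8 or 9 of the 19 were called. The calls of EMD (higher) and TOR1B (lower) held in none of these fits. Of 12 genes of SUMO conjugation 1 was higher and 3 were lower (33.3% called), and 5 were lower at equal sums, at equal medians and after quantile normalization. The median log2 fold changes of the 4 lists were −0.08, 0.06, −0.01 and 0.01, in the order given, beside 0.03 for all genes.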

How the data were processed

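RNA-seq was analysed in 6 libraries of UM-SCC1 cells, 3 per group. The submitters' processing notes name HISAT2, StringTie and the genome build hg38, without versions, and the strandedness of the counting is not given in the sources used here. The authors deposited 1 FPKM value per gene and library for 14959 genes, each listed with a single transcript and length, and the length that entered each FPKM is not stated. Listed coordinates equalled those of GENCODE 29 for all 55 genes of the set and for 14844 of the table. The deposited log2 ratios, p-values and FDR of the authors' own comparison (edgeR) were not used.

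The members and the gene lists were chosen with earlier results of these data known. Any member could be named. Genes of the other lists and the overlapping genes were chosen for mention after their values were seen.

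Values were compared as log2(FPKM + 1) without a filter or further scaling with lmFit and a trended eBayes of limma 3.58.1 (R 4.3.3), two-sided, with Benjamini-Hochberg adjustment over all genes at 0.05. The fit was also run on simulated independent normal values with known changes added. That setting checks the calculation only and does not show how the test behaves on FPKM values. Alternatives were a pseudocount of 0.1, a minimum mean FPKM of 1, a block for the replicate number, omission of each library, equal sums, equal medians, quantile normalization and eBayes without trend. Depth was inferred from low FPKM values of genes with 1 annotated transcript, of which 24.75% to 28.9% were whole multiples of a step within 0.01 of it, too few to recover counts and run a count test. Seed matches, exon overlaps and sums were computed in Python 3.11.15 (numpy 2.4.6, pandas 2.3.3) on GENCODE 29, and the miRNA sequence is from RefSeq. All 55 members had an annotated 3′UTR. Reads of near-identical copies (POM121 and POM121C, RANBP2 and the RGPD genes, processed pseudogenes) may be split in ways the table does not show.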

Additional observations from a re-analysis of the deposited data

How the results depend on the processing

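The count of 28 called pore and transport genes was 28 with a pseudocount of 0.1, with a mean FPKM of at least 1 and with eBayes without trend, 30 with equal sums and with equal medians, 29 with quantile normalization and 25 to 29 with 1 library left out. The 6098 calls over all genes ran from 4971 (1 library left out) to 6089 (pseudocount of 0.1). Of the 28 calls, 24 held under all 13 alternatives run, the others being NUP37, NUP62, NUP210 and POM121, and no called gene of the set changed direction. With the replicate number as a block, 26 were called, with NUP210 (adjusted p = 0.0582) and POM121 (adjusted p = 0.111) lost. The same-numbered libraries did not deviate together (correlations of −0.0401, −0.0210 and −0.108). With 3 libraries per group, this cannot settle whether libraries of the same number were handled as pairs.

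Of the uncalled genes, 4 changed sign. The log2 fold change of NUP133 was −0.0015 without miR-204-5p mimics replicate 2, −0.0059 with equal sums and −0.0070 with equal medians, and at most 0.061 with 1 library left out. That of NUP54 was 0.0022 to 0.074 without miR-204-5p mimics replicate 3 or control mimics replicate 2 or 3 (lowest −0.081 with another library left out), that of RAE1 was −0.081 without control mimics replicate 1 (highest 0.15, without replicate 3), and that of TNPO2 was 0.013 to 0.023 without miR-204-5p mimics replicate 1 or control mimics replicate 1 or 2 (lowest −0.11, without control mimics replicate 3). The cause was not tested. For the 11504 table genes averaging 1 FPKM or more, the median log2 fold change was 0.0407 as given. It was 0.0030 at equal sums, 0.0021 at equal medians and −4.8e-05 after quantile normalization. The total calls of the 4 other lists stayed within 1.5 times, with the SUMO genes at 6 under each of the 3 scalings, but counts by direction moved more: lower calls went from 4 to 2 in the other pore and transport proteins without miR-204-5p mimics replicate 1 and from 3 to 5 in the SUMO genes under the scalings. Joining all 3′UTRs of a gene left the number of members with a seed match at 16. With 3 libraries per group, the smallest called log2 fold change in the set was −0.20 (IPO8), and smaller differences were not called.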
